A study of Hordeum vulgare with 10 samples.

Results

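The regulators of phosphate (Pi) signalling PHR1 (MLOC_5585), PHR2 (MLOC_60198), SIZ1 (MLOC_38182) and PHO2 (MLOC_53410) were followed across roots and shoots of heated and control barley plants. They are the regulators that the study listed under these identifiers, and they are 4 of the 24313 genes counted in roots. They were chosen for their role and not for their expression, but with earlier results of these data known. All plants were Hordeum vulgare cultivar Rolap, 2 weeks old. Control plants stood at 22 °C and heated plants were kept at 35.5 °C for 1 h. Strand-specific poly(A) RNA libraries were made from 2 control and 2 heated root samples and from 3 control and 3 heated shoot samples, 10 in all, which the methods call biological replicates. Whole roots and whole shoots were used, so that fewer cells of a type and less RNA per cell cannot be told apart.

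Plants take up Pi through transporters of the PHT1 family and load it into the xylem through PHO1. In Arabidopsis and rice, transcription factors of the PHR group, with a MYB and a coiled-coil domain, bind the promoters of Pi starvation genes, and in Arabidopsis the SUMO E3 ligase SIZ1 attaches SUMO to PHR1. PHO2 is an E2 ubiquitin conjugase that in Arabidopsis promotes the degradation of PHT1 transporters and of PHO1, and its mRNA is cleaved by the microRNA miR399, whose precursor genes are targets of PHR1 there.

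The authors' deposited tables give 1 mean normalized count (the reads of a library over its size factor) per condition, from which whole reads were worked out for every library. All 16 means of the 4 genes had exactly 1 whole-number solution. Reads in genes with recovered counts were 16026856 to 16830180 per root library and 8664033 to 9656312 per shoot library. The shoot totals leave out 95 abundant genes without a single solution, and those left out in a group held 41.5% of the gene reads in control and 42.9% in heated shoots. Reads not assigned to 1 gene were 60.4% and 60.6% of all counted reads in control and heated roots, and 66.6% and 67.7% in shoots. The recovered libraries are numbered by falling size factor and cannot be matched to the submitters' replicate letters. The heat marker Hsp90.1, a cytosolic chaperone, had a mean normalized count of 163 in control and 196171 in heated roots, and of 51.0 and 30076 in shoots. PHT1;1, a Pi transporter of roots, was counted at 982 and 989 reads in control roots, and at 0 reads in each of the 6 shoot libraries.

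With the scaling used here, PHO2 alone of the 4 regulators passed the test after 1 h of heat, and it fell in both tissues. Of all genes tested, 22.4% in roots and 19.7% in shoots were called lower. The mean of PHO2 fell to 0.68 of the control level in roots and to 0.78 in shoots. PHR1, PHR2 and SIZ1 passed the test in neither tissue. No regulator passed the test of a difference between the responses of roots and shoots. Scaled to total recovered reads instead, SIZ1 passed in both tissues, PHR1 passed in roots, and PHO2 passed the test of a difference. Relative to PHO2, SIZ1 and PHR2, PHR1 had more reads in shoots than in roots, in control and in heated plants alike.

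**Figure D1:**
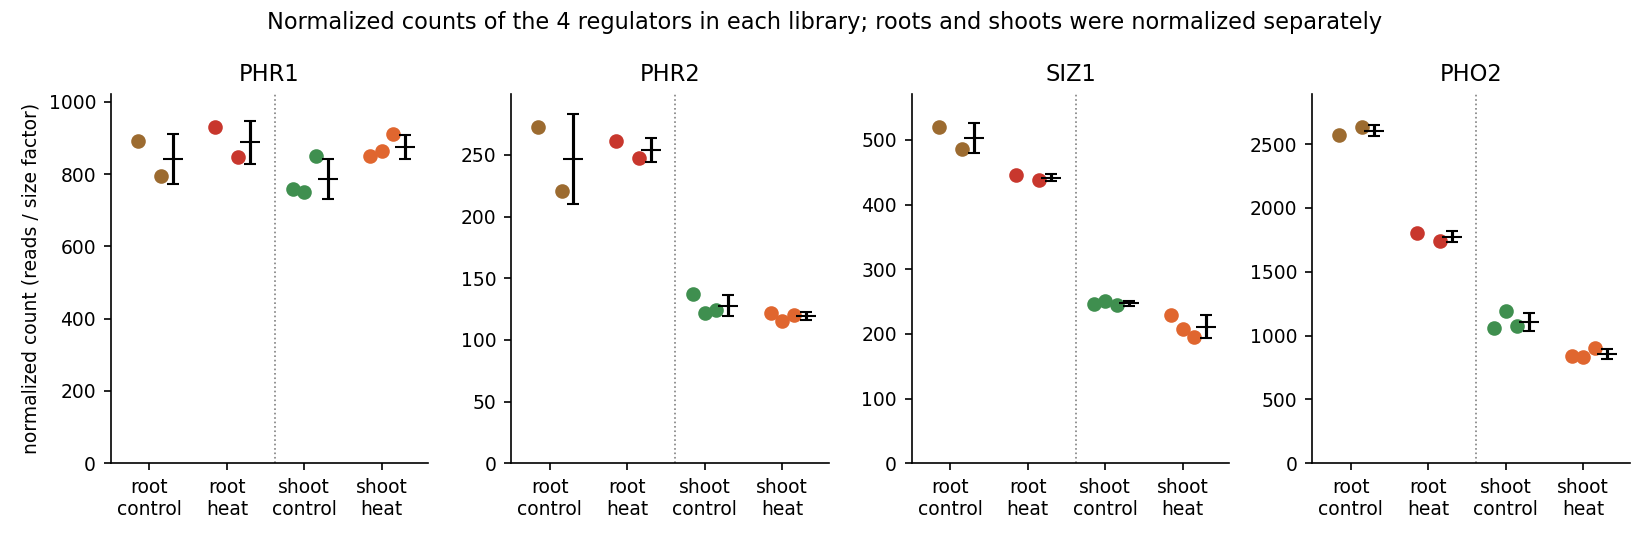
Normalized counts (reads over size factor, vertical axis from 0) of PHR1, PHR2, SIZ1 and PHO2 in each library (points) of control and heated roots and shoots, with mean and SD beside them. Heated root libraries lay at 1744 and 1805 for PHO2, below the control root libraries at 2573 and 2634, and root and shoot panels are on separately normalized scales on either side of the dotted line.

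PHR1, the barley counterpart of the rice transcription factor PHR1, kept similar normalized counts in roots with and without heat. The control root libraries held 1089 and 920 reads of PHR1 and the heated root libraries 794 and 708, which are 891 and 793 against 930 and 846 normalized counts. The groups overlapped, and the libraries of 1 condition lay further apart than the group means of 842 ± 69.3 and 888 ± 59.1 normalized counts (SD, n = 2 each). In edgeR's quasi-likelihood test the log2 fold change of PHR1 in roots was 0.07 (95% confidence interval -0.20 to 0.35, adjusted p = 0.65). In shoots, PHR1 had 894, 825 and 862 reads in control libraries and 827, 802 and 794 in heated ones. In normalized counts these were 759, 751 and 849 against 849, 865 and 911, so that the highest control library touched the lowest heated one. Its log2 fold change in shoots was 0.16 (95% confidence interval -0.04 to 0.36, adjusted p = 0.20 from edgeR). PHR1 was the only regulator whose fitted change was above 0 in both tissues with the scaling used here, and neither change passed the test. With libraries scaled to their total recovered reads, PHR1 was instead called lower in heated roots (log2 fold change -0.41, adjusted p = 0.020 from edgeR). Without control root library 2 its log2 fold change in roots was -0.01, and without control root library 1 it was 0.16, with no call in either case.

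PHR2, the second transcription factor of the group, had the lowest read depth of the 4 genes in every library, so that its values are the least precise. Its reads were 333 and 256 for the control root libraries and 223 and 207 for the heated ones, or 273 and 221 against 261 and 247 normalized counts. Both heated root libraries fell between the control ones. Control root library 1 exceeded control root library 2 for PHR1 and PHR2 alike, and the spread of PHR2 in control roots (CV 14.9%) was above the 5.83% that counting error alone gives a library. The variance between control root libraries was 6.46 times that of counting for PHR2, with a median of 2.87 times over well-covered genes. edgeR gave PHR2 a log2 fold change of 0.04 in roots (95% confidence interval -0.34 to 0.42, adjusted p = 0.87). Leaving out control root library 2 or 1 moved it to -0.11 or 0.20, both without a call. In shoots PHR2 had 162, 134 and 126 reads in control libraries and 119, 107 and 105 in heated ones, which are 137, 122 and 124 against 122, 115 and 121 normalized counts. The lowest control and the highest heated library were almost level, and the CVs of 6.59% and 2.96% did not exceed the counting error of 8.43% and 9.52%. For PHR2 in shoots the log2 fold change was -0.10 (95% confidence interval -0.37 to 0.17, adjusted p = 0.56 from edgeR). Changes of PHR2 within these intervals were not resolved, with the spread between control libraries above counting error in roots and counting error as large as the spread in shoots.

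SIZ1, the SUMO E3 ligase, had lower normalized counts in every heated library than in any control library of the same tissue, but did not pass the test. The share of all genes whose libraries separate in this way was not counted. Changes with heat were common, with 43.9% of tested genes called in roots and 38.6% in shoots, in either direction. In roots the control libraries held 635 and 564 reads of SIZ1 and the heated ones 380 and 366, or 520 and 486 against 445 and 437 normalized counts. For SIZ1 in roots the log2 fold change was -0.19 (95% confidence interval -0.48 to 0.09, adjusted p = 0.22 from edgeR). In shoots it had 290, 276 and 248 reads in control libraries and 224, 193 and 170 in heated ones, or 246, 251 and 244 against 230, 208 and 195 normalized counts. The control shoot libraries were close together (CV 1.44%) and the heated ones further apart (CV 8.31%). The log2 fold change of SIZ1 in shoots was -0.22 (95% confidence interval -0.45 to -0.00), with an unadjusted p = 0.050 and an adjusted p = 0.11 from edgeR. Scaled to total recovered reads, SIZ1 passed the test in both tissues, with a log2 fold change of -0.67 in roots (adjusted p = 0.0027 from edgeR) and of -0.35 in shoots (adjusted p = 0.025).

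PHO2, the E2 conjugase, was lower after heat in both tissues. The control root libraries held 3143 and 3054 reads of PHO2 and the heated ones 1541 and 1459. These are 2573 and 2634 against 1805 and 1744 normalized counts, and within each condition the CVs of 1.65% and 2.42% were no larger than the counting error of 1.80% and 2.58%. So small a spread was below the usual. The variance between libraries over that of counting was 0.85 and 0.88 for PHO2, against medians of 2.87 and 1.91 over well-covered genes. The log2 fold change of PHO2 in roots was -0.56 (standard error 0.10, 95% confidence interval -0.78 to -0.33, adjusted p = 0.0032 from edgeR). In shoots PHO2 had 1250, 1309 and 1091 reads in control libraries and 817, 774 and 788 in heated ones. These are 1061, 1191 and 1075 against 838, 835 and 905 normalized counts, with all 3 heated libraries below all 3 control libraries. As for SIZ1, the share of all genes that separate in this way was not counted. The CVs of PHO2 in shoots, 6.45% and 4.59%, were above the counting error of 2.87% and 3.55%. The log2 fold change of PHO2 in shoots was -0.37 (standard error 0.09, 95% confidence interval -0.57 to -0.16, adjusted p = 0.0087 from edgeR). PHO2 was called lower under all 8 alternative fits in roots (adjusted p of 0.00012 to 0.021) and all 10 in shoots (0.0010 to 0.046), each library left out in turn among them.

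In each tissue 1 of the 4 regulators was called, in the lower direction. In roots, 43.9% of the 18453 genes tested by edgeR were called in either direction and 22.4% were called lower. In shoots, 38.6% of 16228 genes were called, and 19.7% were called lower. The fall of PHO2 was of middling size, since 23.5% of the tested genes in roots and 23.7% in shoots had a lower log2 fold change. PHR1 and PHR2 were near the centre of all genes in roots, where 54.8% and 52.8% of genes had a lower log2 fold change, and SIZ1 stood at 39.4%. The shares in shoots were 63.7% (PHR1), 41.8% (PHR2) and 32.2% (SIZ1).

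**Figure D2:**
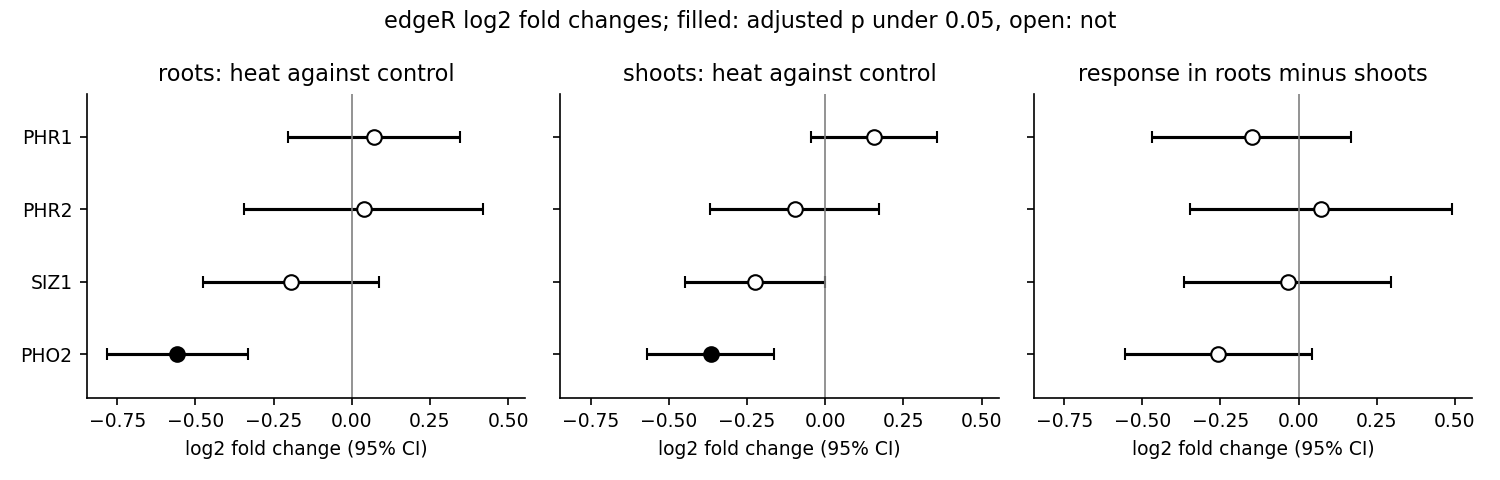
edgeR log2 fold changes (points) with 95% confidence intervals (bars) of PHR1, PHR2, SIZ1 and PHO2 for heat against control in roots, heat against control in shoots, and the response in roots minus the response in shoots. Filled points mark an adjusted p under 0.05, which PHO2 alone reached, at -0.56 in roots and -0.37 in shoots, and in the right panel all 4 intervals cover 0.

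Whether the response differed between the tissues was tested with an interaction term over all 10 libraries. None of the 4 regulators passed, against 18.0% of 19186 genes called in either direction. At an unadjusted p under 0.05 none of them passed either, and DESeq2 and limma called none. For PHO2, the response in roots minus that in shoots was -0.26 on the log2 scale (95% confidence interval -0.56 to 0.04, adjusted p = 0.23 from edgeR). The differences were -0.15 for PHR1 (-0.47 to 0.17), 0.07 for PHR2 (-0.35 to 0.49) and -0.03 for SIZ1 (-0.37 to 0.30), each with its 95% confidence interval. The intervals leave room for differences of up to 0.56 on the log2 scale for PHO2, so that equal responses are not shown. With libraries scaled to total recovered reads, the difference of PHO2 was -0.46 and passed the test (adjusted p = 0.031 from edgeR), while the median of all genes moved by -0.20.

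The other 6 genes of the pathway with an identifier are 3 PHT1 transporters (PHT1;1, PHT1;4 and PHT1;6), the xylem loader PHO1, the SPX and MFS domain protein gene SPX-MFS, and NLA, a RING-type ubiquitin ligase with an SPX domain. In roots all 6 were tested, 5 were called lower and 1, NLA, was called higher by edgeR. In shoots 3 of the 6 had enough reads to be tested (PHT1;6, NLA and SPX-MFS) and none was called, with unadjusted p-values of 0.077 for NLA, 0.14 for SPX-MFS and 0.33 for PHT1;6, and by DESeq2 as by edgeR 0 of the 3 passed. In the interaction term all 6 were tested, and 4 passed, NLA with a higher and PHO1, SPX-MFS and PHT1;6 with a lower response in roots than in shoots. For PHT1;1 and PHT1;4 the term could not decide, since shoot libraries held 0 reads of PHT1;1 and 0 to 3 of PHT1;4. The shoot response of PHO1 rested on 5 to 14 reads per library. Among the Pi-related genes tested in both tissues, PHO2 was the one called in each. The share of all genes called in both tissues was not counted.

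Ratios of reads within a library do not depend on how libraries are scaled, and the length of a gene cancels when the same ratio is compared between libraries. The reads of PHO2 over the summed reads of PHR1, PHR2 and SIZ1 were 1.53 and 1.76 in control roots, against 1.103 and 1.139 in heated roots. In shoots the ratio was 0.929, 1.06 and 0.883 in control libraries and 0.698, 0.702 and 0.737 in heated ones. Heated and control libraries did not overlap in either tissue, and the mean ratio (geometric) fell to 0.68 of the control value in roots and to 0.75 in shoots. A two-sided exact permutation test gave p = 0.33 in roots and p = 0.10 in shoots, the smallest values that 2 against 2 and 3 against 3 libraries allow. How often ratios of other genes separate heated from control libraries was not counted.

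Against PHR1 alone, the ratio of PHO2 was 2.89 and 3.32 in control roots, 1.94 and 2.06 in heated roots, 1.40, 1.59 and 1.27 in control shoots, and 0.988, 0.965 and 0.992 in heated shoots. Every heated library lay below every control library of its tissue. The same order held for PHO2 over PHR2 in both tissues (9.44 and 11.9 against 6.91 and 7.05 in roots, 7.72 to 9.77 against 6.87 to 7.50 in shoots). For PHO2 over SIZ1 it held in roots (4.95 and 5.41 against 4.06 and 3.99), while in shoots the heated libraries (3.65 to 4.64) overlapped the control ones (4.31 to 4.74). PHO2 and SIZ1 were both lower in heated shoots by normalized count, with SIZ1 short of the threshold. PHR1 over SIZ1 was higher in heated than in control libraries, at 2.09 and 1.93 against 1.71 and 1.63 in roots and at 3.69 to 4.67 against 2.99 to 3.48 in shoots. PHR2 over SIZ1 separated in roots (0.566 and 0.587 in heated against 0.454 and 0.524 in control) and overlapped in shoots. PHR1 over PHR2 separated in shoots (6.95 to 7.56 in heated against 5.52 to 6.84 in control) and overlapped in roots. Separation of heated from control libraries was thus not particular to ratios with PHO2.

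**Figure D3:**
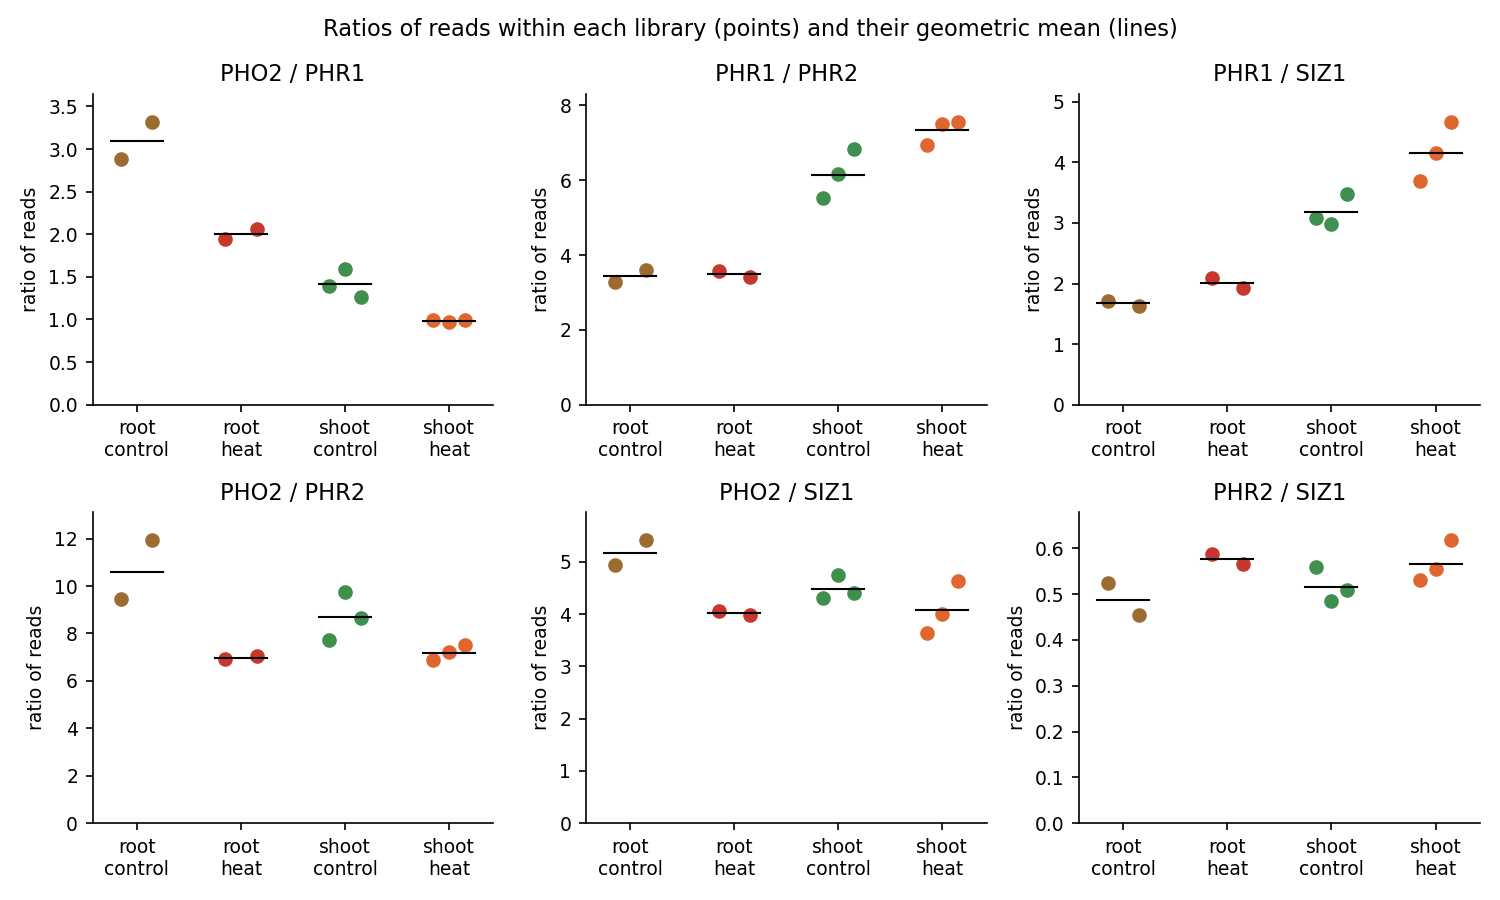
Ratio of the reads of 2 regulators within each library (points, vertical axes from 0) for all 6 pairs in the 4 groups, with the geometric mean of each group as a line. The 3 pairs with PHR1 (upper row) separate the 4 root from the 6 shoot libraries, with PHO2 over PHR1 at 1.94 to 3.32 in roots and 0.965 to 1.59 in shoots, and the 3 pairs without PHR1 (lower row) overlap between the tissues.

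Between the tissues, the ratios with PHR1 separated root from shoot libraries. How many other pairs of genes separate the tissues was not counted. PHR1 over PHR2 was 3.27 to 3.59 in the 4 root libraries and 5.52 to 7.56 in the 6 shoot libraries, and PHR1 over SIZ1 was 1.63 to 2.09 in roots and 2.99 to 4.67 in shoots. PHO2 over PHR1 was 2.19 times as high in control roots as in control shoots and 2.04 times as high in heated roots as in heated shoots, from geometric means. The 3 ratios that leave out PHR1 overlapped between the tissues. PHR2 over SIZ1 stayed within 0.454 to 0.587 in roots and 0.486 to 0.618 in shoots, PHO2 over SIZ1 within 3.99 to 5.41 and 3.65 to 4.74, and PHO2 over PHR2 within 6.91 to 11.9 and 6.87 to 9.77. These pairs were compared after the levels had been seen to depend on the scaling, and no p is given for them.

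In the joint fit of all 10 libraries, levels are given in CPM (reads scaled to a common library size) after TMM scaling, which assumes that most genes do not differ. The fit covers the 24217 genes with recovered reads in every library, so that abundant shoot genes are left out. Between the tissues 74.3% of tested genes were called in control and 76.1% in heated plants, so the assumption is in doubt. CPM are thus no absolute levels between roots and shoots. PHR1 had 48.1 and 43.0 CPM in control roots, 48.1 and 43.7 in heated roots, 99.0, 97.6 and 110.6 in control shoots, and 111.3, 113.0 and 119.2 in heated shoots. The order of PHR1 was thus control roots and heated roots, whose libraries overlapped, then control shoots and heated shoots, whose libraries did not overlap on this scale but did not pass the test. PHR1 was lower in roots by a log2 fold change of -1.17 in control plants (standard error 0.11, adjusted p = 1.8e-07 from edgeR) and of -1.32 in heated plants (standard error 0.11, adjusted p = 5.5e-08). Among the 19186 genes tested, 23.4% in control and 23.3% in heated plants had a lower log2 fold change than PHR1. Regardless of direction, 53.6% in control and 55.1% in heated plants had a smaller difference, so that of PHR1 was of middling size with this scaling. For PHR2, PHO2 and SIZ1 these shares were 20.7%, 2.50% and 15.9% in control and 14.5%, 16.9% and 16.1% in heated plants.

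PHO2 had 138.8 and 142.6 CPM in control roots, 93.3 and 90.0 in heated roots, 138.4, 154.8 and 140.0 in control shoots, and 110.0, 109.1 and 118.3 in heated shoots. Its order from the lowest was heated roots, heated shoots, control roots and control shoots, of which the last pair did not differ beyond their spread (log2 fold change -0.04, adjusted p = 0.74 from edgeR). Heated roots were below heated shoots by a log2 fold change of -0.29 (adjusted p = 0.015), a call that was lost without heated root library 2 (adjusted p = 0.092). Control roots were above heated shoots by 0.32 (adjusted p = 0.0077).

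SIZ1 had 28.0 and 26.3 CPM in control roots, 23.0 and 22.6 in heated roots, 32.1, 32.6 and 31.8 in control shoots, and 30.2, 27.2 and 25.5 in heated shoots. The order from the lowest was heated roots, control roots, heated shoots and control shoots. Heated and control libraries did not overlap in either tissue, but no neighbours in this order passed the test (adjusted p = 0.092, 0.85 and 0.12 from edgeR in the joint fit). Heated roots were below heated shoots by a log2 fold change of -0.28 (adjusted p = 0.035 from edgeR), a call that 3 of 10 fits with a library left out kept. PHR2 had 14.7 and 12.0 CPM in control roots, 13.5 and 12.8 in heated roots, 17.9, 15.9 and 16.2 in control shoots, and 16.0, 15.1 and 15.8 in heated shoots. In the order heated roots, control roots, heated shoots and control shoots, no neighbours of PHR2 passed the test. Control roots were below control shoots by a log2 fold change of -0.32 (adjusted p = 0.046), a call that 2 of 10 fits with a library left out kept, and it was -0.09 without control root library 2.

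In all, 2 of the 4 regulators (PHR1 and PHR2) were called lower in control roots than in control shoots and 3 (PHR1, PHO2 and SIZ1) in heated roots than in heated shoots. Over all genes, 74.3% were called in either direction and 35.6% were called lower in roots in control plants, and 76.1% and 36.9% in heated plants. Differences of this kind are therefore common between the tissues, and tissue cannot be told apart from any batch that the root and the shoot libraries may form.

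The direction of these tissue differences depends on the scaling. As a share of all normalized reads in genes, the genes without recovered reads included, control roots had 1.11 times the level of control shoots for PHR1, 2.00 times for PHR2, 2.11 times for SIZ1 and 2.43 times for PHO2. In heated plants the factors were 0.883, 1.85, 1.82 and 1.80. With this scaling, for which no test was made, PHR2, SIZ1 and PHO2 had higher values in roots. Scaled to total recovered reads, PHO2 and SIZ1 were called higher in control roots than in control shoots, with log2 fold changes of 0.54 and 0.33 (adjusted p = 0.00012 and 0.016 from edgeR). The call of PHR2 in control plants was lost with DESeq2 (adjusted p = 0.15) and without a filter on low counts (adjusted p = 0.066), as was that of SIZ1 in heated plants (adjusted p = 0.15 and 0.079). Scaling to the total moved the median of all genes by 0.57 on the log2 scale in the control and by 0.37 in the heated comparison. PHR1 was below the other 3 regulators in its root to shoot difference under each of the 4 scalings plotted. Since a scaling moves all 4 genes of a library alike, this order restates the ratios within libraries and is no further support.

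**Figure D4:**
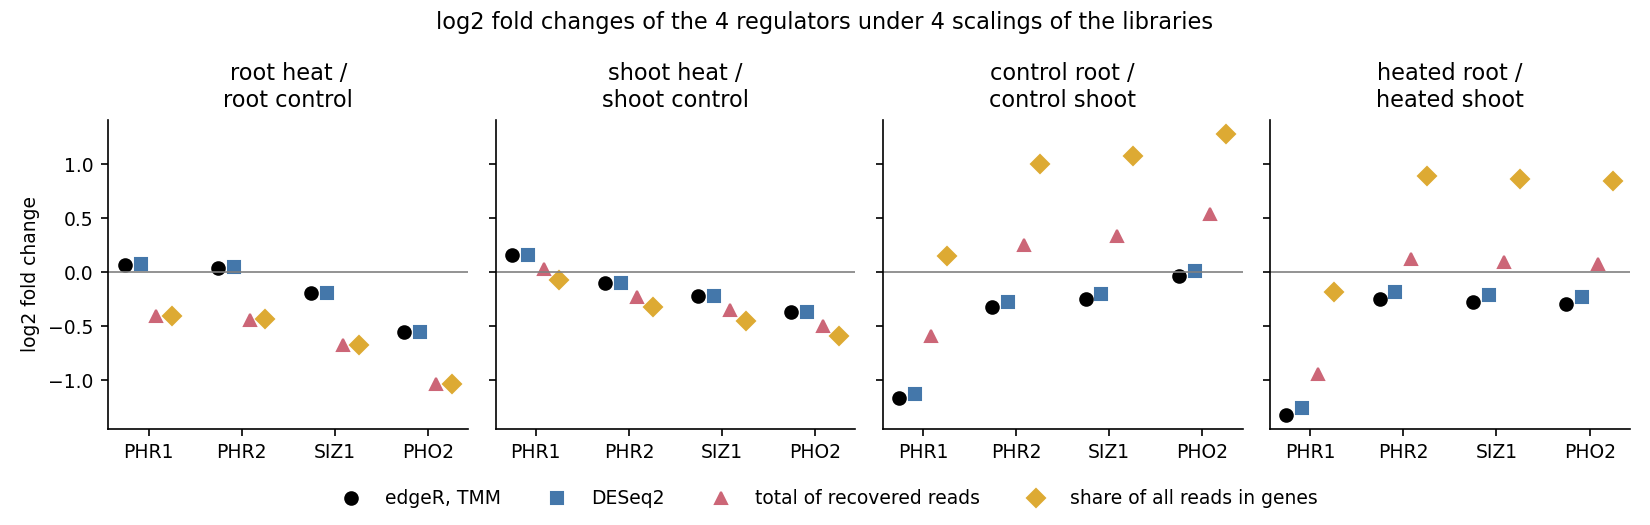
log2 fold changes of PHR1, PHR2, SIZ1 and PHO2 in 4 comparisons (panels) with libraries scaled by TMM in edgeR, by DESeq2, to total recovered reads, or as a share of all reads in genes (symbols). PHO2 is below 0 in both heat comparisons under each scaling, from -0.37 to -0.60 in shoots and from -0.55 to -1.03 in roots, whereas PHR2, SIZ1 and PHO2 change sign between scalings in both tissue comparisons, and PHR1 does so in the control one.

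The genes most like each regulator were taken as those nearest to it in the log2 deposited means of the 4 groups, among 19182 genes with all means above 0. For PHO2 these were MLOC_61378 (distance 0.15 on the log2 scale) and MLOC_66568 (0.26). The means of MLOC_61378 were 2771 in control and 1674 in heated roots and 1062 and 893 in shoots, beside 2603, 1774, 1109 and 859 for PHO2. The nearest genes to PHR1 were MLOC_62548 (0.14) and MLOC_81045 (0.23). For PHR2 they were MLOC_40038 (0.11) and MLOC_68950 (0.12), and for SIZ1 MLOC_66442 (0.14) and MLOC_81750 (0.15). PHO2 had 27 genes within a distance of 0.5 and PHR1 had 44, whereas PHR2 had 161 and SIZ1 159. The distance reflects level as well as pattern. Over the 4 group means, the correlation with the regulator was 0.55 for MLOC_81045 and 0.82 to 0.999 for the others. Ranked by correlation instead, 0 of the 8 genes stayed. The tables used here give no names for these 8 identifiers.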

How the data were processed

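RNA of 2-week-old barley roots and shoots was sequenced from control plants and after 1 h of heat. Mapping by the authors was done with TopHat2 (Ensembl Plants barley genome), counting per gene with HTSeq and testing within each tissue with DESeq. For tool versions and the strand setting of the counting, nothing was given in the sources used here. In the tables that the authors deposited, there is a signal value per gene and condition, the mean of reads divided by size factors, besides fold changes and p-values of the authors' own comparisons, which were not used. Since the means are printed to 15 digits, each was split into the whole reads of its libraries by listing every whole-number solution, and only means with a single solution were kept (all root means, 99.6% of the shoot means above 0 in each condition). The size factors were inferred from low means, and those recomputed from the recovered reads differed by at most 0.133%. Reads with several alignments, 2.82% and 4.04% in roots and 21.9% and 23.9% in shoots, were left out of the gene counts by the authors. Near-identical genes could therefore lose reads. Whether antisense genes share reads is not known, since the strand setting was not given.

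Recovered reads were tested with edgeR 4.0.16 in R 4.3.3 (quasi-likelihood test, TMM scaling, filterByExpr at its defaults, Benjamini-Hochberg adjustment over all genes tested, threshold 0.05), per tissue and in 1 joint fit for the interaction and the tissue contrasts. Steps were tested on simulated data. Alternatives were DESeq2 1.42.0, limma 3.58.1 on log2(CPM + 1), no filter, total scaling and each library left out. Python 3.11.15, numpy 2.4.6, pandas 2.3.3, scipy 1.17.1 and matplotlib 3.10.9 were also used. The text names the 4 regulators, 6 further Pi-related genes, Hsp90.1 and the 2 genes nearest to each regulator. These genes and lists were chosen with earlier results of these data known. Of the identifiers, 0 matched the table of barley gene names at hand, so no sequence or coordinate is given.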

Additional observations from a re-analysis of the deposited data

How the results depend on the processing

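The calls of PHO2 in heated roots and shoots held in every alternative fit. Scaled to total recovered reads, the log2 fold changes in heated roots of PHR1, PHR2 and SIZ1 were -0.41, -0.44 and -0.67 (adjusted p = 0.020, 0.052 and 0.0027 from edgeR), and -0.35 for SIZ1 in shoots. The median of all genes moved by -0.48 in roots and -0.13 in shoots, with 1916 root genes called higher and 9071 lower, against 3972 and 4132 with TMM, and 2058 higher and 4330 lower in shoots. The interaction was then -0.13 for PHR2 and -0.46 for PHO2 (adjusted p = 0.031). As shares of all gene reads, the root changes were -0.40 for PHR1, -0.44 for PHR2, -1.03 for PHO2 and -0.67 for SIZ1, and the shoot changes -0.073, -0.33, -0.60 and -0.46. The fit over all 4 groups gave -0.022 for PHR2 in roots.

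Control roots against control shoots gave 0.25 for PHR2, 0.54 for PHO2 and 0.33 for SIZ1 by total scaling (the last 2 called higher in roots, adjusted p = 0.00012 and 0.016 from edgeR), 0.15, 1.00, 1.28 and 1.08 for PHR1, PHR2, PHO2 and SIZ1 as shares, -0.28 for PHR2 (no longer called, adjusted p = 0.15) and 0.0072 for PHO2 by DESeq2, and -0.30 for PHR2 without a filter (no longer called, adjusted p = 0.066). Heated roots against heated shoots gave 0.12, 0.078 and 0.092 for PHR2, PHO2 and SIZ1 by total scaling, -0.18, 0.89, 0.84 and 0.86 as shares, and -0.21 by DESeq2 and -0.24 without a filter for SIZ1. Total scaling counts only genes with recovered reads, whereas the shares include the rest. The rest made up 41.5% of shoot gene reads without heat and 42.9% with it. In roots, library sizes in the root fit and in the joint fit were 16820537 and 16448118 reads for control library 1. For heated library 1 they were 16640497 and 15402717. The cause of the shifts between settings was not tested.

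With each library left out in turn, the log2 fold change in roots ranged from -0.012 to 0.16 for PHR1 and from -0.11 to 0.20 for PHR2, and the interaction from -0.14 to 0.16 for PHR2 and from -0.15 to 0.033 for SIZ1. Control roots against control shoots ranged from -0.39 to -0.088 for PHR2, -0.068 to 0.072 for PHO2 and -0.25 to -0.11 for SIZ1, and heated roots against heated shoots from -0.32 to -0.26 for PHO2 and -0.33 to -0.21 for SIZ1. A fit that leaves 1 root library in a condition assumes that it varies like the others. Ranked by correlation in place of distance, 0 of the 8 nearest genes stayed. No paired analysis was possible because the recovered libraries carry no replicate letter. With 2 root libraries per condition and 105 to 162 shoot reads of PHR2 per library, small changes could not be resolved.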
